A study of Mus musculus with 28 samples.

Results

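The subject of these measurements was a set of 10 genes of the Notch pathway, followed by RNA sequencing through the differentiation of mouse cranial neural crest cells at 2 oxygen levels. The set holds the ligands Jag1 and Jag2, the receptors Notch1, Notch2, Notch3 and Notch4, and the target genes Hes1, Hey1, Hey2 and Heyl. The members were taken by symbol from a count table of 54429 genes, and each of the 10 symbols matched 1 gene. The cells were O9-1, 1 mouse cell line of cranial neural crest origin. In the embryo this crest gives rise to much of the bone, cartilage and connective tissue of the face.

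There were 28 libraries from 4 kinds of culture at 2 oxygen levels, which makes 8 groups. A group kept at 21% O2, called normoxic here, has 4 libraries, and a group kept at 0.5% O2, called hypoxic, has 3. Proliferating cultures grew in DMEM conditioned by STO cells, with 15% fetal calf serum, 25 ng/ml bFGF and 5 ng/ml LIF, non-essential amino acids and beta-mercaptoethanol. Chondrocyte cultures spent 3 days in the osteoblast medium and then 7 days as micro mass cultures on matrigel, in alpha-MEM with 5% serum, 10 ng/ml TGF-beta3, 50 ng/ml BMP-2, 0.1 µM dexamethasone and insulin-transferrin-selenium. Osteoblast cultures spent 10 days in alpha-MEM with 10% serum, 10 mM beta-glycerophosphate, 0.1 µM dexamethasone and 100 ng/ml BMP-2. Smooth muscle cultures spent 3 days in DMEM with 10% serum and no growth factor named. Penicillin and streptomycin were present in every medium. No group carries a genetic change to the pathway, so each comparison is of RNA levels between culture conditions of 1 line, and the labels do not say whether libraries of a group came from separate cultures.

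Notch signalling passes between touching cells. A Jagged or Delta ligand on one cell binds a Notch receptor on its neighbour, ADAM proteases and gamma-secretase cut the receptor, and the freed intracellular domain joins the DNA-binding protein Rbpj and a Mastermind coactivator to switch on genes of the Hes and Hey families, which encode transcriptional repressors. The pathway is known for holding skeletal progenitors back from maturation, for patterning the craniofacial skeleton through Jag1, and for the formation of vascular smooth muscle through Notch3.

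Libraries held between 19869271 and 64693346 counts. Levels are given as CPM, counts per 1e6 counts of a library after TMM scaling in edgeR, and means carry their SD. Changes are on the log2 scale, and SE is the standard error of a change. Each comparison was tested over all genes with edgeR's quasi-likelihood test, two-sided, and a change was called at a Benjamini-Hochberg adjusted p under 0.05. Some libraries stood apart. In the 3 hypoxic smooth muscle libraries the mitochondrial ribosomal RNAs took 11.6 to 13.3% of the counts, against at most 0.0889% in the other 25 libraries, and their TMM factors were 0.518 to 0.545 against 0.896 to 1.26 elsewhere. The 8 smooth muscle markers summed to 92.6 to 117 CPM in those libraries, with Myocd at 0, against 3697 to 4137 CPM in normoxic smooth muscle cultures and 193 to 197 CPM in hypoxic proliferating cells, so the defining markers of smooth muscle did not bear out the label of those libraries. The normoxic osteoblast library 4 held 1614 CPM of the 10 chondrocyte markers, against 195 to 213 CPM in the other 3 libraries of its group. Osteoblast markers were highest in the chondrocyte cultures, at 38617 to 51621 CPM summed over 9 genes against 6788 to 15822 CPM in osteoblast cultures. The 8 neural crest markers summed to 199 to 228 CPM in normoxic and 199.996 to 208 CPM in hypoxic proliferating cells, with Foxd3 at 0 in every group and Sox10 in every group but normoxic smooth muscle.

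Per kilobase of exon, the scale on which genes can be set side by side, Notch2 led the set in normoxic proliferating cells with 7.57 ± 0.466 CPM per kb (SD, n = 4). Jag1 followed with 4.78 ± 0.301, Hes1 with 4.59 ± 0.318 and Notch1 with 2.97 ± 0.0827 CPM per kb, while Notch3 stood at 0.222 ± 0.120 CPM per kb and the remaining members lower still. In normoxic chondrocyte cultures the order was Jag1, with 39.0 ± 2.06 CPM per kb, then Hey1 with 23.1 ± 5.97, Notch2 with 22.1 ± 1.45 and Hes1 with 16.6 ± 1.11 CPM per kb. In hypoxic osteoblast cultures Hey1 led with 35.9 ± 2.63 CPM per kb (SD, n = 3), ahead of Notch2 with 17.5 ± 1.54 and Jag1 with 15.4 ± 2.36 CPM per kb. A target gene that was nearly without counts in proliferating cells was therefore the most abundant member, per length, in one of the differentiated groups.

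**Figure D1:**
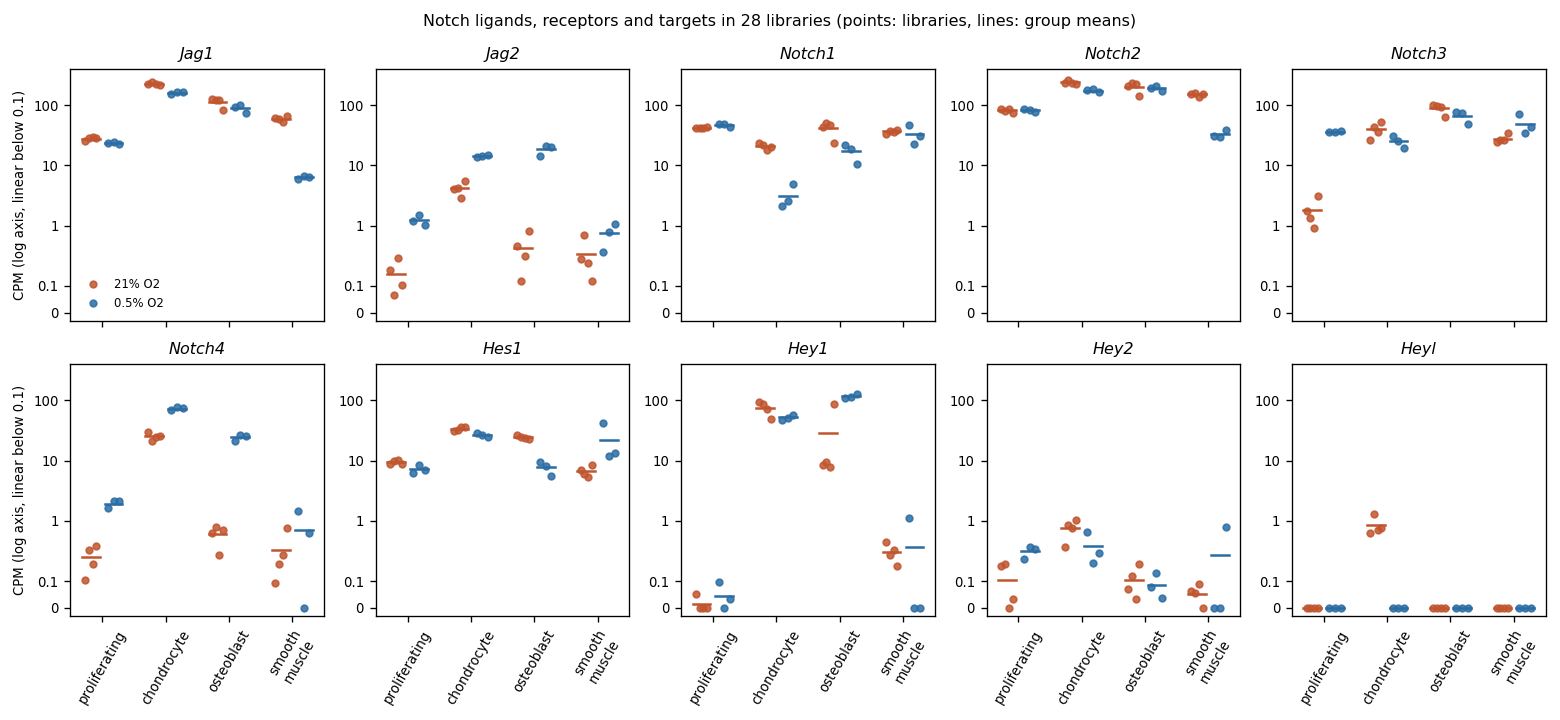
CPM of the 10 members in the 28 libraries, by culture (horizontal axis) and oxygen level (colour), on a log axis that is linear below 0.1. Points are libraries and lines are group means; Hey1 lies near 0 in all 7 proliferating libraries and Notch3 is low only in the 4 normoxic proliferating libraries.

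Jag1, the ligand whose loss in humans causes Alagille syndrome, was the more abundant of the Jagged ligands per kilobase in all 8 groups (gene at chr2:137081456-137116644, minus strand, mm10). In normoxic proliferating cells the libraries read 25.3, 28.3, 29.3 and 28.5 CPM, and in normoxic chondrocyte cultures 225, 244, 224 and 216 CPM. The groups lay far apart, and Jag1 rose 8.34-fold (log2 fold change 3.06, SE 0.07, adjusted p = 3.85e-12). Normoxic osteoblast libraries read 128, 122, 122 and 82.8 CPM, the fourth library being the lowest, and normoxic smooth muscle libraries 61.7, 58.2, 52.7 and 66.4 CPM. Both groups lay above proliferating cells without overlap, with log2 fold changes of 2.02 (SE 0.13, adjusted p = 3.90e-07) and 1.07 (SE 0.07, adjusted p = 2.03e-09). Under hypoxia Jag1 was somewhat lower in proliferating cells (23.4, 24.6 and 22.9 CPM, log2 fold change -0.24, SE 0.07, adjusted p = 0.00966) and in chondrocyte cultures (152, 162 and 164 CPM, log2 fold change -0.53, SE 0.07, adjusted p = 0.000241). It still rose from the hypoxic proliferating level by 2.75 in chondrocyte and 1.93 in osteoblast cultures on the log2 scale. The hypoxic smooth muscle libraries, at 5.94, 6.71 and 6.35 CPM, were the lowest of all groups, with no overlap with any other group, also when scaled by library size alone.

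Jag2, a second Jagged ligand with its own limb and palate phenotypes in mice, was far lower but moved over a wider range (chr12:112907819-112929776, minus strand). Its counts in normoxic proliferating cells, 24 over 4 libraries, gave 0.181, 0.0653, 0.288 and 0.103 CPM. Hypoxic proliferating cells read 1.18, 1.49 and 1.03 CPM, above every normoxic library, an 8.28-fold difference (log2 fold change 3.05, SE 0.46, adjusted p = 5.05e-05). In chondrocyte cultures the libraries read 4.05, 4.18, 2.88 and 5.42 CPM at normoxia and 13.8, 14.3 and 15.1 CPM at hypoxia, again without overlap (log2 fold change 1.79, SE 0.18, adjusted p = 4.67e-05). The contrast was widest in osteoblast cultures, where normoxic libraries read 0.459, 0.120, 0.309 and 0.812 CPM and hypoxic libraries 14.1, 20.9 and 20.4 CPM, a 42.1-fold difference (log2 fold change 5.40, SE 0.39, adjusted p = 8.34e-06). Without the normoxic osteoblast library 4 that log2 difference was 5.92. In smooth muscle cultures Jag2 stayed at or under 1.07 CPM at both oxygen levels.

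Before the receptors are taken in turn, the bases just upstream of 3 receptor genes and of Hey2 are shown, since these genes differ in how they answered to oxygen and Hey2 is the one member whose window holds a match to an Rbpj motif. The RefSeq table (GRCm38.p6) holds a promoter for 7 of the 10 members, the others being Hes1, Hey1 and Heyl. Each window is the 250 bases before the RefSeq start, on the gene's own strand and without bases of any exon in GENCODE, which removed the whole window of Jag2. The Notch1 window lies in an intron of a longer annotated Notch1 transcript, and the other 3 lie upstream of their genes. The search covered both strands for the Rbpj motifs GTGGGAA and GTGAGAA and for the core of the hypoxia response element, ACGTG or GCGTG. Matches are in capitals. The windows are chr2:26503825-26504072 on the minus strand for Notch1, chr17:32166891-32167140 on the minus strand for Notch3, chr17:34564045-34564267 on the plus strand for Notch4 and chr10:30842802-30843033 on the minus strand for Hey2.
Notch1 promoter: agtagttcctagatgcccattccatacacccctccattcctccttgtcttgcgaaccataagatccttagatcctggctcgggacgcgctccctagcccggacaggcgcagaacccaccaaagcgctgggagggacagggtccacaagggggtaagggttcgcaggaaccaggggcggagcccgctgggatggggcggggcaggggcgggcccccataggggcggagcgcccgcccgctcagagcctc
Notch3 promoter: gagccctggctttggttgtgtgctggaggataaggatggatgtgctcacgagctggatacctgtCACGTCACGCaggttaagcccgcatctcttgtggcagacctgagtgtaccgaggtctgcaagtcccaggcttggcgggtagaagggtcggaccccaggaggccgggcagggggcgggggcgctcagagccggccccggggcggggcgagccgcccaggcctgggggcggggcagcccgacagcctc
Notch4 promoter: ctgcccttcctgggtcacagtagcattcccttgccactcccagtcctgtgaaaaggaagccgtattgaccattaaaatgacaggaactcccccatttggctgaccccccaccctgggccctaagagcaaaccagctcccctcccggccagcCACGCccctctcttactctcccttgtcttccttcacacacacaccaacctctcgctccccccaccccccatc
Hey2 promoter: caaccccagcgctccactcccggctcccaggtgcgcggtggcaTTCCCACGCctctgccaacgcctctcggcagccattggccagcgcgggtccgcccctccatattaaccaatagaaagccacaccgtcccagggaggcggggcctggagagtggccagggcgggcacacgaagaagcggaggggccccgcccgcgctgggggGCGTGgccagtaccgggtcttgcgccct
In Hey2 the opposite strand of GTGGGAA begins 207 bases before the start, and its last bases overlap a reversed GCGTG that begins 203 bases before the start. A GCGTG on the gene's own strand begins 46 bases before the start. Notch3 holds ACGTG and GCGTG side by side on the opposite strand, 186 and 181 bases before its start, and Notch4 holds 1 reversed GCGTG 99 bases before its start. The hypoxia core is common, being found in 38.6% of the 32851 promoters of the table over their untrimmed 250 bases, while GTGGGAA is in 5.42% and GTGAGAA in 3.83%. Of the windows not printed, Notch2 holds 1 and Jag1 2 hypoxia cores. These letters describe the windows and were not tested against the RNA levels.

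Notch1, the best studied receptor of the family, had its highest group mean in hypoxic proliferating cells and fell with chondrocyte culture (chr2:26457903-26516663, minus strand). Normoxic proliferating libraries read 40.9, 42.1, 42.2 and 43.7 CPM and normoxic chondrocyte libraries 23.6, 21.9, 18.01 and 20.1 CPM (log2 fold change -0.98, SE 0.08, adjusted p = 3.97e-07). Hypoxic chondrocyte libraries read only 2.11, 2.55 and 4.81 CPM, the lowest of any group and without overlap with it, 6.67-fold below their normoxic counterparts (log2 fold change -2.74, SE 0.26, adjusted p = 9.73e-05). Hypoxic osteoblast libraries, at 21.8, 18.9 and 10.7 CPM, also lay below the normoxic ones, at 43.9, 51.0, 47.1 and 23.6 CPM (log2 fold change -1.27, SE 0.32, adjusted p = 0.0114). Library 4 was the low one among the normoxic osteoblast cultures, and without it the log2 difference was -1.46. In proliferating cells hypoxic libraries read 49.3, 48.4 and 43.8 CPM, slightly above the normoxic ones (log2 fold change 0.15, SE 0.06, adjusted p = 0.0395). That call was lost in 5 of the 7 fits that left out 1 library (any normoxic one but library 4, or the hypoxic library 1 or 2), with adjusted p up to 0.169, and also with library size as the scale (0.08, adjusted p = 0.278), without a filter (0.11, adjusted p = 0.202) and by DESeq2 (0.15, adjusted p = 0.0518). The change with differentiation was thus more negative at hypoxia, and the tests of that difference gave -2.88 (SE 0.24, adjusted p = 1.71e-07) for chondrocyte and -1.38 (SE 0.34, adjusted p = 0.00379) for osteoblast cultures on the log2 scale. Notch1 shares exonic bases with 0610009E02Rik and Gm13568 on the other strand, and it is not known here whether counting used strand.

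Notch2 (chr3:98013527-98150361, plus strand) was the most abundant receptor per kilobase in 7 of 8 groups, hypoxic smooth muscle being the exception, and rose with differentiation. Normoxic proliferating libraries read 84.9, 80.3, 86.1 and 75.0 CPM and hypoxic ones 86.7, 83.0 and 76.2 CPM, which overlap (log2 fold change 0.00, SE 0.06, adjusted p = 0.998). It rose 2.98-fold in normoxic chondrocyte cultures, to 238 ± 15.7 CPM, 2.44-fold in osteoblast cultures, to 201 ± 39.8 CPM, and 1.82-fold in smooth muscle cultures, to 152 ± 9.39 CPM (SD, n = 4 each). Under hypoxia it rose 2.13-fold in chondrocyte and 2.31-fold in osteoblast cultures. Hypoxic chondrocyte libraries, at 175, 185 and 163 CPM, lay below every normoxic chondrocyte library (log2 fold change -0.47, SE 0.07, adjusted p = 0.00109). In hypoxic smooth muscle cultures Notch2 was at 31.2, 29.8 and 37.9 CPM, below all other groups. Notch2 shares exonic bases with Gm42820.

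Notch3, a receptor known for its role in vascular smooth muscle, had 1 low group (chr17:32120820-32166852, minus strand). Normoxic proliferating libraries read 1.76, 1.33, 0.926 and 3.15 CPM, while hypoxic proliferating libraries read 36.4, 36.3 and 36.5 CPM, a 21.1-fold difference with no overlap (log2 fold change 4.40, SE 0.28, adjusted p = 2.50e-06). At normoxia Notch3 rose in each differentiated culture, to 26.7, 43.6, 36.2 and 52.3 CPM in chondrocyte, 99.4, 95.6, 93.3 and 63.9 CPM in osteoblast and 24.6, 26.2, 26.1 and 33.9 CPM in smooth muscle libraries. The log2 fold changes were 4.55 (SE 0.34), 5.65 (SE 0.32) and 3.98 (SE 0.28). At hypoxia, starting from the higher proliferating level, it fell by 0.54 (SE 0.14) in chondrocyte cultures and rose by 0.86 (SE 0.14) in osteoblast cultures on the log2 scale. The differentiated cultures themselves overlapped between oxygen levels, with 30.2, 25.7 and 19.1 CPM in hypoxic chondrocyte and 77.1, 72.5 and 47.8 CPM in hypoxic osteoblast libraries. Neither difference was called (adjusted p = 0.0900 and 0.107), though the osteoblast one was called without the normoxic library 4 (-0.54, adjusted p = 0.00849). The chondrocyte one was called without the normoxic library 1 (-0.83, adjusted p = 0.0153), by DESeq2 (-0.68, adjusted p = 0.00670) and with library size as the scale (-0.76, adjusted p = 0.0480). The change with differentiation differed between oxygen levels by -5.07 (SE 0.43) for chondrocyte, -4.76 (SE 0.39) for osteoblast and -3.38 (SE 0.40) for smooth muscle cultures, each with an adjusted p of at most 3.07e-06. The 5 pericyte markers, genes of a vessel cell type that expresses Notch3, summed to 206 to 229 CPM in normoxic and 203 to 218 CPM in hypoxic proliferating libraries, with Kcnj8 and Abcc9 at 0 in both. In the normoxic differentiated cultures, where Notch3 rose, the sum was higher too, at 1351 to 1423 CPM in chondrocyte, 503 to 696 CPM in osteoblast and 405 to 473 CPM in smooth muscle libraries, with Abcc9 at 0 in all 3 groups and Kcnj8 at 0 in chondrocyte cultures. At hypoxia it was 1196 to 1308 CPM in chondrocyte, 873 to 981 CPM in osteoblast and 70.3 to 84.97 CPM in smooth muscle libraries. The part of these markers in the Notch3 levels was not tested. Notch3 shares exonic bases with the antisense gene Gm17276.

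Notch4, a receptor best known from endothelial cells, was almost without counts in normoxic proliferating cells, low in hypoxic ones and high in chondrocyte cultures (chr17:34564268-34588503, plus strand). Normoxic proliferating libraries read 0.103, 0.327, 0.192 and 0.377 CPM and hypoxic ones 1.61, 2.11 and 2.10 CPM, without overlap (log2 fold change 2.92, SE 0.38, adjusted p = 1.10e-05). Chondrocyte libraries read 29.5, 21.0, 24.7 and 25.9 CPM at normoxia, 99.0-fold above proliferating cells (log2 fold change 6.63, SE 0.22, adjusted p = 1.51e-10), and 68.8, 76.2 and 74.4 CPM at hypoxia, a further 2.86-fold higher (log2 fold change 1.51, SE 0.10, adjusted p = 2.58e-06). Osteoblast libraries split by oxygen, with 0.636, 0.799, 0.274 and 0.715 CPM at normoxia and 21.2, 26.3 and 25.2 CPM at hypoxia, a 40.1-fold difference (log2 fold change 5.33, SE 0.25, adjusted p = 5.73e-07). The small rise over proliferating cells in normoxic osteoblast cultures (log2 fold change 1.24, adjusted p = 0.0306) rests on overlapping libraries and was kept in 3 of the 8 fits that left out 1 library. Its adjusted p passed 0.05 without any 1 of the normoxic proliferating libraries 1 and 3 and the osteoblast libraries 1, 2 and 4, the highest being 0.0853, and with library size as the scale it was 0.0503. The interaction took opposite signs, -1.35 (SE 0.28) for chondrocyte cultures, where the normoxic rise was the larger, and 2.47 (SE 0.44) for osteoblast cultures. The 8 endothelial markers summed to 5.61 to 7.83 CPM in hypoxic and 1.82 to 4.14 CPM in normoxic chondrocyte libraries, and to 1.36 to 3.21 CPM in hypoxic and 0.479 to 3.12 CPM in normoxic osteoblast libraries, with Tie1 and Emcn at 0 in all 4 groups. In proliferating libraries they summed to 0.799 to 0.891 CPM at normoxia and 2.15 to 2.69 CPM at hypoxia, with Tie1 and Emcn at 0. The part of those markers in the Notch4 levels was not tested. RNA levels in bulk libraries cannot tell fewer cells of a type apart from less RNA per cell.

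Hes1, a repressor gene that several pathways besides Notch can switch on, rose in chondrocyte cultures at both oxygen levels (chr16:30064384-30067796, plus strand). Normoxic proliferating libraries read 8.79, 9.73, 10.1 and 8.81 CPM and normoxic chondrocyte libraries 31.6, 32.0, 35.5 and 35.8 CPM (log2 fold change 1.88, SE 0.08, adjusted p = 1.39e-09). Hypoxic proliferating libraries read 6.35, 8.44 and 7.07 CPM and hypoxic chondrocyte libraries 28.6, 26.4 and 24.5 CPM (log2 fold change 1.86, SE 0.12, adjusted p = 1.84e-08). The difference between those rises was 0.02 (SE 0.15, adjusted p = 0.952). Hypoxic libraries lay below normoxic ones in proliferating cells (log2 fold change -0.37, SE 0.12, adjusted p = 0.0170) and in chondrocyte cultures (log2 fold change -0.37, SE 0.09, adjusted p = 0.0114). The first call was lost without the hypoxic proliferating library 1 (-0.28, adjusted p = 0.0939) or 3 (-0.35, adjusted p = 0.0543), the second without the hypoxic chondrocyte library 3 (-0.31, adjusted p = 0.0648). In osteoblast cultures normoxic libraries read 26.2, 24.7, 24.0 and 22.4 CPM and hypoxic ones 9.45, 8.15 and 5.49 CPM, 3.15-fold lower (log2 fold change -1.65, SE 0.17, adjusted p = 5.72e-05). The hypoxic osteoblast libraries overlapped hypoxic proliferating cells (log2 fold change 0.08, SE 0.19), and the interaction was -1.24 (SE 0.22, adjusted p = 0.000149). In hypoxic smooth muscle cultures library 1 read 41.3 CPM and the other 2 libraries 12.1 and 13.4 CPM, so the mean rests on 1 library.

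Hey1, a repressor gene induced by Notch and also by BMP signalling, had the widest range of the set (chr3:8663359-8667256, minus strand). Over the 4 normoxic proliferating libraries it had 2 counts, all in library 1, and over the 3 hypoxic ones 4 counts. Normoxic chondrocyte libraries read 92.3, 87.9, 72.3 and 49.1 CPM and hypoxic ones 47.4, 51.9 and 58.3 CPM. The ratio of depth-scaled counts to proliferating cells was 6655-fold (95% interval 1842 to 54963, counting error only) at normoxia and 1141-fold (95% interval 445 to 4189.9) at hypoxia. Between the oxygen levels the chondrocyte libraries overlapped (log2 fold change -0.54, SE 0.21, adjusted p = 0.122). The difference was called without the normoxic chondrocyte library 4, the lowest of its group (-0.70, adjusted p = 0.000781), and by DESeq2 (-0.53, adjusted p = 0.0161). Hypoxic osteoblast libraries read 109.9, 115 and 127 CPM, the highest of any group and 2551-fold (95% interval 996 to 9365) above hypoxic proliferating cells. Normoxic osteoblast libraries read 8.37, 9.34, 7.99 and 88.7 CPM, so 3 libraries lay between 7.99 and 9.34 CPM and library 4, the one with the raised chondrocyte markers, lay in the range of the normoxic chondrocyte cultures. With all 4 libraries the oxygen difference in osteoblast cultures was 2.03 (SE 0.99, adjusted p = 0.131) on the log2 scale, a difference that was called by limma-voom (2.90, adjusted p = 0.0100) and in 1 fit over the 8 groups (2.04, adjusted p = 0.00516). Without library 4 it was 3.78 (SE 0.09, adjusted p = 3.00e-12), a 13.7-fold difference. The part that the chondrocyte markers of that library play was not tested. Smooth muscle cultures held 41 counts over 4 normoxic and 15 over 3 hypoxic libraries, the latter all in library 1.

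Hey2 and Heyl, the other Hey family genes, were near the limit of detection (Hey2 at chr10:30832359-30842801, minus strand, and Heyl at chr4:123233556-123249875, plus strand). Hey2 was highest in normoxic chondrocyte cultures, at 0.373, 0.844, 0.774 and 1.02 CPM, against 0.181, 0.196, 0 and 0.0343 CPM in normoxic proliferating cells (log2 fold change 2.63, SE 0.60, adjusted p = 0.00165). In the remaining 6 groups its mean was at or under 0.381 CPM. Heyl had counts in normoxic chondrocyte cultures and in no other library of the study. The 4 libraries read 0.622, 1.33, 0.703 and 0.764 CPM from 94 counts in all. Taking 3 counts over the group as the most that a count of 0 allows, Heyl was at least 48.7-fold higher there than in normoxic proliferating cells and at least 24.0-fold lower in hypoxic chondrocyte cultures (adjusted p = 1.90e-05 and 0.000721).

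At normoxia all 10 members passed the filter on low counts in the chondrocyte comparison, where 9 rose and 1, Notch1, fell. Of all genes tested 37.7% were called higher and 37.2% lower. In osteoblast cultures 7 members were tested, 6 rose and none fell, against 40.9% and 37.8% of all genes, and without library 4 it was 5 of 7, Notch4 no longer being called, where 12119 of 14699 genes were called. Jag2, Hey2 and Heyl did not pass the filter there. In smooth muscle cultures 5 were tested, 3 rose (Notch2, Notch3 and Jag1) and 2 fell (Notch1 and Hes1), against 40.8% and 38.9%, with Notch4, Jag2, Hey1, Hey2 and Heyl not passing the filter. A member that passes the filter only through the group where it is high had to differ, so these counts describe the members and do not test them as a set. Markers of other cell types moved with the cultures. The 6 neuron and glia markers summed to 93.6 to 132 CPM in normoxic and 112 to 138 CPM in hypoxic chondrocyte libraries, with Elavl3 at 0 in the normoxic ones, against 3.87 to 8.94 and 15.6 to 18.6 CPM in the proliferating cells. The 8 smooth muscle markers summed to 3699 to 5252 CPM in normoxic osteoblast and 2095 to 2536 CPM in normoxic chondrocyte libraries, against 92.4 to 99.3 CPM in normoxic proliferating cells, with none at 0. Their part in the members' changes was not tested.

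At hypoxia the chondrocyte comparison tested 9 members, of which 6 rose and 2 (Notch1 and Notch3) fell, against 34.9% of all genes called higher and 34.6% lower. Heyl was not tested in it. The osteoblast comparison tested 8, of which 6 rose and 1, Notch1, fell, against 36.2% and 35.1%, and Hey2 and Heyl were not tested. In smooth muscle cultures 7 were tested, 2 rose (Notch3 and Hes1) and 2 fell (Notch2 and Jag1), against 33.8% and 36.2%, with Hey1, Hey2 and Heyl not tested. With library size as the scale none of the 7 were called higher and 6 lower, where 1748 of 14080 genes were called higher and 9941 lower.

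**Figure D2:**
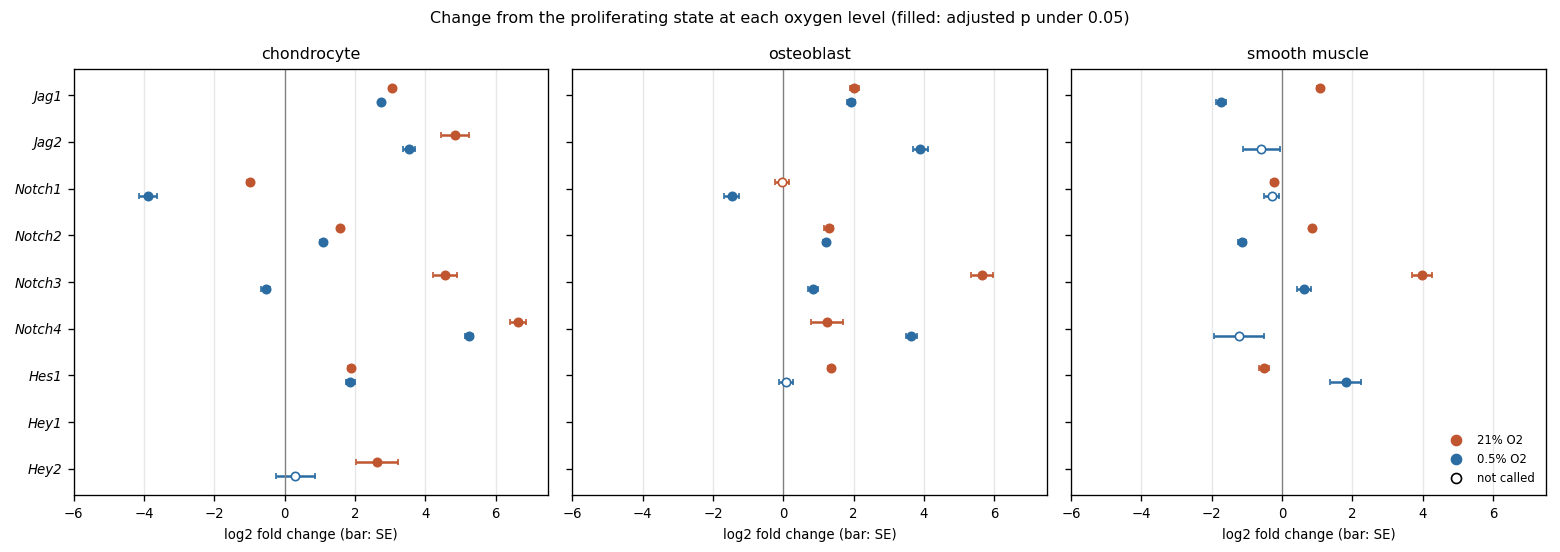
Log2 fold change of each member from the proliferating to the differentiated cultures at 21% and 0.5% O2, with its SE; filled points have an adjusted p under 0.05. Members with 10 or fewer counts in a group (Hey1 and Heyl throughout) are not drawn; Notch3 rises by 4.55, 5.65 and 3.98 at normoxia only from its low proliferating level, and its hypoxic smooth muscle value turns negative when libraries are scaled by size alone.

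Between the oxygen levels, 7 members were tested in proliferating cells, 4 rose under hypoxia (Notch1, Notch3, Notch4 and Jag2) and 2 fell (Jag1 and Hes1), against 33.1% of all genes called higher and 32.3% lower. Hey1, Hey2 and Heyl were not tested there. Notch3, Notch4 and Jag2 rose 21.1, 7.54 and 8.28-fold, and the other 3 called changes were at most 1.29-fold. Marker sums also differed between these cells. At normoxia and hypoxia the chondrocyte list read 101 to 141 and 209 to 224 CPM, with Col9a1 and Matn1 at 0 in both. The smooth muscle list read 92.4 to 99.3 and 193 to 197 CPM, with Myocd and Des at 0 at hypoxia. The osteoblast, endothelial, immune and neuron and glia sums were higher at hypoxia too, without overlap. The neural crest, pericyte and epithelial sums overlapped. The part of these lists was not tested. In chondrocyte cultures all 10 were tested, 2 rose (Notch4 and Jag2) and 5 fell (Notch1, Notch2, Jag1, Hes1 and Heyl), against 10.4% and 11.8%. The 10 chondrocyte markers summed to 3208 to 9570.3 CPM in the normoxic and 911 to 1393 CPM in the hypoxic chondrocyte libraries, without overlap and with Matn1 at 0 in the hypoxic ones, and their part in these changes was not tested. In osteoblast cultures 8 were tested, 2 rose (Notch4 and Jag2) and 2 fell (Notch1 and Hes1), against 27.0% and 27.3%, and Hey2 and Heyl did not pass the filter. Without the normoxic osteoblast library 4 all 8 were called, Hey1 being added to those that rose and Notch2, Notch3 and Jag1 to those that fell, where 9376 of 14295 genes were called. Marker lists also differed between these osteoblast cultures. The 9 osteoblast markers summed to 6788 to 10662 CPM at normoxia and 13747 to 15822 CPM at hypoxia, and the 8 smooth muscle markers to 3699 to 5252 and 2226 to 2529 CPM, with none at 0. The 8 neural crest markers summed to 255 to 276 and 379 to 431 CPM, with Sox10 and Foxd3 at 0 at both oxygen levels and Ngfr at hypoxia. The 10 chondrocyte markers summed to 195 to 213 CPM in normoxic libraries 1 to 3, 1614 CPM in library 4 and 618 to 651 CPM at hypoxia, with Matn1 at 0 there. The part of these lists in the members' differences was not tested. Notch4 and Jag2 were higher at 0.5% O2 in proliferating, chondrocyte and osteoblast cultures alike, and in each of these comparisons the libraries of the oxygen levels did not overlap.

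**Figure D3:**
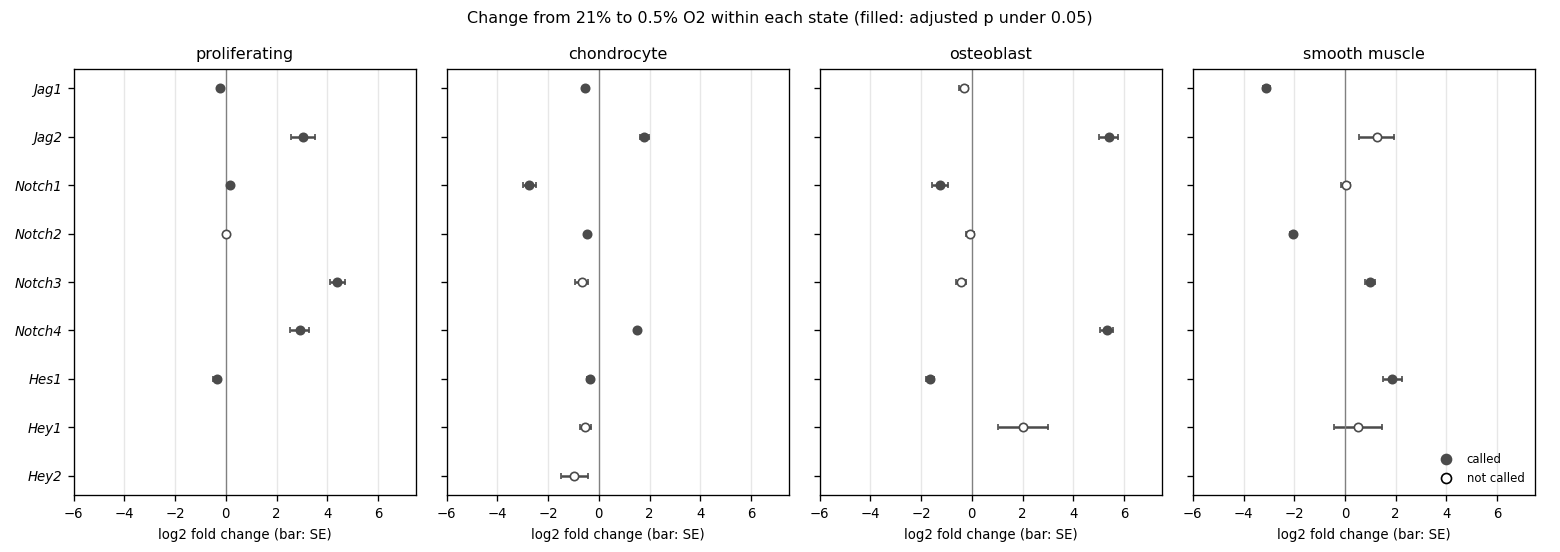
Log2 fold change of each member from 21% to 0.5% O2 within each culture, with its SE; filled points have an adjusted p under 0.05, and members not tested or with 10 or fewer counts in a group are not drawn. Notch4 and Jag2 lie right of 0 in the first 3 panels, while in the smooth muscle panel Notch3 turns negative when libraries are scaled by size alone.

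In hypoxic smooth muscle cultures directions depended on the scaling. Scaling by library size alone moved the median log2 fold change of all genes to -1.49 against normoxic smooth muscle cultures, from -0.12, and to -1.35 against hypoxic proliferating cells, from -0.07. Against normoxic smooth muscle cultures 7 members were tested, 2 were called higher and 2 lower (0 and 3 with library size as the scale), with 35.4% and 40.2% of all genes (2002 and 10831 of 14914 genes with library size as the scale). Notch4, Hey2 and Heyl were not tested. Jag1 was lower under both scalings, with -3.10 by TMM and -4.47 by library size, as was Notch2, with -2.06 or -3.43. Notch3 was at 0.98 (adjusted p = 0.000385) with TMM and -0.38 (adjusted p = 0.0984) with library size, and Hes1 at 1.88 (adjusted p = 0.00141) and 0.53 (adjusted p = 0.215). Without library 1 the Hes1 value was 1.05 (adjusted p = 0.000206). Notch1 was not called with TMM (0.03, adjusted p = 0.885) and was lower with library size (-1.33, adjusted p = 1.45e-05) and, with TMM, without library 1 (-0.32, adjusted p = 0.0414). Against hypoxic proliferating cells Jag1 fell by both scalings (-1.73 and -3.00), as did Notch2 (-1.14 and -2.41). Notch3 was at 0.62 (adjusted p = 0.0177) by TMM, -0.65 (adjusted p = 0.0169) by library size and 0.28 (adjusted p = 0.0537) without library 1. It was not called either without a filter (adjusted p = 0.172), or without the hypoxic proliferating library 2 (adjusted p = 0.0566) or 3 (adjusted p = 0.0605). Hes1 was at 1.81 (adjusted p = 0.00547) by TMM and 0.54 (adjusted p = 0.252) by library size. Without library 1 it was at 0.99 (adjusted p = 0.000703), and without a filter it was not called (1.71, adjusted p = 0.0847). Library size also called Notch1 (-1.57, adjusted p = 4.23e-05), Notch4 (-2.48, adjusted p = 0.00802) and Jag2 (-1.85, adjusted p = 0.00692) lower there. That makes 0 members higher and 6 lower with library size. With TMM, leaving out library 1 moved Notch1 from -0.30 to -0.63 (adjusted p = 0.00166) and Notch4 from -1.23 to -2.39 (adjusted p = 0.0161). Notch4 then had 7 counts in the hypoxic smooth muscle group, all in library 3. In both comparisons the low levels of Jag1 and Notch2 were therefore the member results that kept their direction and call under both scalings. The 6 immune markers summed to 32.5 to 36.6 CPM in these libraries, with Adgre1, Tyrobp and Cd3e at 0, against at most 5.90 CPM in every other library. By TMM the neural crest markers summed to 549.6 to 619 CPM in these libraries, against 267 to 306 CPM in normoxic smooth muscle cultures. That was the highest of any group, with Sox10, Foxd3, Ngfr and Pax3 at 0 in these libraries. With library size as the scale it was not the highest, since TMM factors of 0.518 to 0.545 raise the CPM of these libraries. The 9 osteoblast markers summed to 1027 to 1221 CPM, the lowest of any group, with Alpl, Ibsp and Bglap at 0. The mitochondrial share, these markers and the low smooth muscle markers moved with these values, and their part was not tested.

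In the other cultures no called change of a member turned its direction with library size as the scale. With library size as the scale, 9 members were called higher and 1 lower in normoxic chondrocyte cultures, with 3899 and 7349 of 14360 genes. Normoxic osteoblast cultures had 5 and 0, with 5256 and 6099 of 14434 genes. Hypoxic chondrocyte cultures had 6 and 2, with 3353 and 7202 of 14347 genes. Hypoxic osteoblast cultures had 6 and 1, with 3994 and 6459 of 14338 genes. Between oxygen levels the numbers were 3 and 2 in proliferating cells, with 4146 and 5128 of 14156 genes. They were 2 and 6 in chondrocyte cultures, with 1091 and 2336 of 14205 genes. In osteoblast cultures they were 2 and 4, with 3036 and 5200 of 14533 genes. Over all genes that scale moved the share of calls that were higher from 50.3% to 34.7% in normoxic chondrocyte cultures (median log2 fold change -0.35), from 50.2% to 31.8% in hypoxic chondrocyte cultures (-0.35) and from 50.8% to 38.2% in hypoxic osteoblast cultures (-0.23). Between oxygen levels it moved that share from 46.9% to 31.8% in chondrocyte, from 49.6% to 36.9% in osteoblast (-0.19) and from 46.8% to 15.6% in smooth muscle cultures, and in the hypoxic smooth muscle comparison with proliferating cells from 48.3% to 15.0%. For the smooth muscle interaction the share went from 49.6% to 16.6% (median -1.37), and for the osteoblast interaction the median moved to -0.12.

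Whether differentiation moved a member by a different amount at the 2 oxygen levels was tested as an interaction, the change from proliferating cells at hypoxia minus that at normoxia. For chondrocyte cultures 7 of 10 members were called, all of them negative, with 21.6% of all genes called positive and 21.9% negative. Notch3 (-5.07) and Notch1 (-2.88) had the largest, followed by Hey2 (-2.32), Notch4 (-1.35), Jag2 (-1.29), Notch2 (-0.45) and Jag1 (-0.27). Those of Hey2, Jag2 and Jag1 were lost without the hypoxic proliferating library 2, which left 4 called. Jag2 was lost also without the normoxic proliferating library 2 (-0.84, adjusted p = 0.117), Jag1 without the hypoxic chondrocyte library 1 (-0.24, adjusted p = 0.0538), and Hey2 in 10 of 14 fits that left out 1 library (adjusted p up to 0.103). For osteoblast cultures 5 of the 8 tested (Hey2 and Heyl were not) were called, with Notch4 (2.47) and Jag2 (2.36) positive and Notch1, Notch3 and Hes1 negative, against 28.9% and 25.3%. For smooth muscle cultures 4 of the 9 tested (Heyl was not) were called, Hes1 positive and Notch2, Notch3 and Jag1 negative, against 34.9% and 35.5%. With library size as the scale none were positive and 6 negative, where 2019 of 15640 genes were called positive and 10115 negative. Hes1 was no longer called (adjusted p = 0.0672), and Notch1 (-1.41, adjusted p = 1.04e-05), Notch4 (-2.90, adjusted p = 0.0114) and Jag2 (-3.05, adjusted p = 0.00330) were. Without the hypoxic smooth muscle library 1, 7 of 9 were called with TMM and the Hes1 value was 1.47 (adjusted p = 8.83e-06), the 3 added being Notch1, Notch4 and Hey1, the last with 0 counts left in the hypoxic smooth muscle group. Hey1 had too few proliferating counts for an interaction to be read. Heyl had counts in normoxic chondrocyte cultures alone, so its chondrocyte interaction cannot be read either. DESeq2 (-7.58, adjusted p = 0.00169) and limma-voom (-6.04, adjusted p = 0.000180) called it.

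With 1 estimate of the spread from a fit over the 8 groups, several called changes were lost. These were Notch1 (-0.29, adjusted p = 0.256) in normoxic smooth muscle cultures, Notch3 (-0.53, adjusted p = 0.122) in hypoxic chondrocyte and (0.50, adjusted p = 0.138) in hypoxic smooth muscle cultures, and Notch1 (0.10, adjusted p = 0.785) and Hes1 (-0.42, adjusted p = 0.202) between oxygen levels in proliferating cells. Hes1 between oxygen levels in chondrocyte cultures (-0.36, adjusted p = 0.370) and the chondrocyte interactions of Jag1 (-0.22, adjusted p = 0.292), Jag2 (-1.22, adjusted p = 0.102) and Hey2 (-2.30, adjusted p = 0.106) were lost too. That fit called Jag1 lower at 0.5% O2 in osteoblast cultures (-0.33, adjusted p = 0.0128), as did library size scaling (-0.48, adjusted p = 0.0279). Library size scaling called Notch3 there too (-0.56, adjusted p = 0.0360). The fit over 8 groups also called Notch4 lower in hypoxic smooth muscle against hypoxic proliferating cells (-1.29, adjusted p = 0.0269). It called Jag2 in the smooth muscle interaction as well (-1.86, adjusted p = 0.0272).

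Of 6 other ligand genes 4 were tested in chondrocyte cultures, and all 4 fell at normoxia (median log2 fold change -2.11, against 0.00 over all genes) and 3 of 4 at hypoxia (median -2.42, against -0.02), where 37.2% and 34.6% of all genes were called lower. The same numbers fell with library size as the scale. At hypoxia the remaining gene was called higher by TMM, against 34.9% of all genes, and was not called with library size. Dll1, a Delta ligand, read 5.39 ± 0.556 CPM in normoxic proliferating and 1.23 ± 0.531 CPM in normoxic chondrocyte cultures, and 0.297 ± 0.333 CPM in hypoxic chondrocyte cultures. It was lower at 0.5% O2 in chondrocyte (-2.01, adjusted p = 0.0484) and osteoblast cultures (-1.98, adjusted p = 0.00529). Dlk2, a non-canonical ligand, rose to 40.9 ± 4.86 CPM in hypoxic osteoblast cultures from 6.20 ± 2.73 CPM in hypoxic proliferating cells (2.72, adjusted p = 4.74e-05). Dlk1, its relative, was higher at 0.5% O2 in proliferating (1.504), chondrocyte (1.31) and osteoblast cultures (1.49), each called, the last not called with library size as the scale (1.32, adjusted p = 0.0634).

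Of 14 genes that modify and cut the receptors 13 were tested, and 12 rose in normoxic osteoblast cultures with none falling (median log2 fold change 0.49, against 0.07 over all genes), where 40.9% of all genes were called higher and 37.8% lower, 11 without library 4 and 9 with library size as the scale. In normoxic chondrocyte cultures 10 rose and none fell (median 0.41), against 37.7% and 37.2% of all genes, but with library size as the scale 5 rose and 2 fell (median 0.06). Between the oxygen levels in osteoblast cultures 3 of the 13 rose under hypoxia and 7 fell (median -0.33, against -0.03 over all genes), where 27.0% of all genes were called higher and 27.3% lower. With library size as the scale it was 2 and 9 (median -0.49), and without library 4 it was 3 and 7 (median -0.31). Lfng, a Fringe glycosyltransferase that alters which ligands a receptor answers to, reached 37.8 ± 8.06 CPM in hypoxic and 23.8 ± 2.42 CPM in normoxic chondrocyte cultures, from 8.03 ± 0.540 and 10.5 ± 1.52 CPM in the proliferating cells. Adam10, the protease that cuts the receptor once ligand is bound, rose by 1.02 in normoxic osteoblast cultures, and Psen2, a gamma-secretase subunit, by 1.91. Furin, the convertase that makes the first cut of the receptor during its export, rose by 0.89 in normoxic chondrocyte cultures. Ncstn, another gamma-secretase subunit, rose by 0.27 there, and was at -0.08 (adjusted p = 0.273) with library size as the scale.

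Of 8 nuclear partners 3 rose and 3 fell in normoxic chondrocyte cultures (median 0.08, against 0.00 over all genes), shares close to the 37.7% and 37.2% of all genes, and 2 rose and 5 fell with library size as the scale. Rbpj, the DNA-binding protein of the pathway, was highest in proliferating cells, at 449 ± 4.52 CPM at normoxia and 675 ± 24.2 CPM at hypoxia. It fell by 2.68 in normoxic chondrocyte, by 2.68 in normoxic osteoblast and by 1.75 in normoxic smooth muscle cultures on the log2 scale. Hypoxia raised it in proliferating (0.58), chondrocyte (1.05) and osteoblast cultures (1.65), each called. The Mastermind coactivators parted: Maml2 rose by 1.66 and 2.32 in normoxic chondrocyte and osteoblast cultures, while Maml3 fell by 1.21 and 0.85. Ep300, a histone acetyltransferase, was at 0.07 (adjusted p = 0.385) in normoxic chondrocyte cultures.

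**Figure D4:**
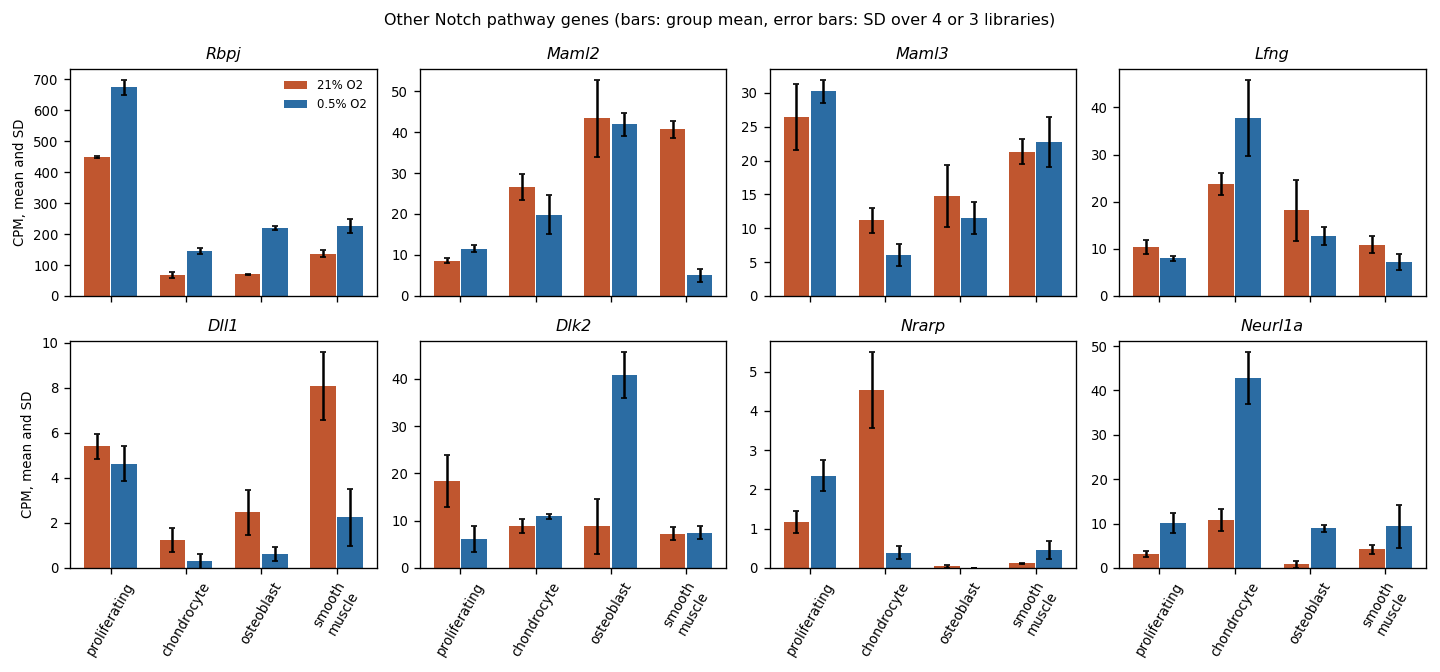
Mean CPM and SD of 8 other Notch pathway genes in the 8 groups, by culture and oxygen level, on linear axes from 0. Rbpj is highest in proliferating cells, Lfng and Neurl1a in hypoxic chondrocyte cultures, Nrarp in normoxic chondrocyte cultures and Dlk2 in hypoxic osteoblast cultures.

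Of 14 genes for ligand endocytosis and receptor turnover 13 were tested, with 8 rising and 1 falling in normoxic chondrocyte cultures (median 0.66, against 0.00 over all genes, of which 37.7% were called higher and 37.2% lower), or 7 and 5 with library size as the scale. In normoxic osteoblast cultures 6 rose and 3 fell at either scale (median 0.12, against 0.07), where 40.9% of all genes were called higher and 37.8% lower. The median was -0.03 with library size as the scale. Without library 4, 8 rose and 3 fell (median 0.34). Neurl1a, a Neuralized ubiquitin ligase, was higher at 0.5% O2 in proliferating (1.72), chondrocyte (1.97) and osteoblast cultures (3.42), reaching 42.9 ± 5.87 CPM in hypoxic chondrocyte cultures. Neurl1b, its relative, changed by -1.14 in chondrocyte and 2.33 in osteoblast cultures, both called. Sel1l rose by 1.80 and Dtx3, a Deltex gene, by 1.08 in normoxic chondrocyte cultures, where Dtx3l fell by 1.56. The ligand ubiquitin ligase Mib1 was at 187 ± 13.3 CPM in normoxic proliferating cells and differed by -0.30 at hypoxia (adjusted p = 0.000411).

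Of 7 further Hes family and feedback targets, 2 or 3 were tested in any comparison. Nrarp, a feedback inhibitor that Notch switches on, rose by 1.98 in normoxic chondrocyte cultures, to 4.53 ± 0.978 CPM, and fell by 2.60 in hypoxic ones, to 0.388 ± 0.168 CPM. The interaction was -4.55 (adjusted p = 2.01e-07). Hes6, a family member known to oppose Hes1, was higher at 0.5% O2 in proliferating cells (1.73).

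As controls of the treatments, all 12 hypoxia list genes were higher at 0.5% O2 in proliferating (median 3.81) and osteoblast cultures (median 3.33). In chondrocyte cultures 11 of 12 were (median 1.65), with the same counts at either scale. Of all genes 33.1%, 27.0% and 10.4% were called higher there. In smooth muscle cultures all 12 were higher (median 3.98), against 35.4%, or 11 with library size as the scale. The list also moved with chondrocyte culture. From proliferating cells 9 rose and 0 fell in normoxic chondrocyte cultures (median 1.97, 9 and 3 by library size), against 37.7% and 37.2%. In hypoxic ones 2 rose and 8 fell (median -0.72, 1 and 10 by library size), against 34.9% and 34.6%. The oxygen differences of Notch4 and Jag2 were 1.51 and 1.79 in chondrocyte and 5.33 and 5.40 in osteoblast cultures, and the difference between these was not tested. Of 7 BMP target genes, all 7 rose in both chondrocyte comparisons and in hypoxic osteoblast cultures and 6 in normoxic osteoblast cultures, with the same counts at either scale, against 34.9 to 40.9% of all genes called higher in these comparisons. The media of these cultures held BMP-2. In comparisons of media for which no BMP-2 is named, 4 of 6 tested rose and 1 fell in normoxic smooth muscle cultures (median 1.21). Of all genes 40.8% were called higher there and 38.9% lower. In hypoxic against normoxic proliferating cells 3 of 6 rose and 1 fell (median 0.70), against 33.1% and 32.3%. These counts held at either scale. In hypoxic smooth muscle against hypoxic proliferating cells 3 of 6 rose and 0 fell (median 0.76), against 33.8% and 36.2%. With library size it was 0 and 2 (median -0.51), with 1748 and 9941 of 14080 genes. Against normoxic smooth muscle cultures 2 of 7 rose and 3 fell (median -0.90), against 35.4% and 40.2%. With library size it was 1 and 5 (median -2.27), with 2002 and 10831 of 14914 genes. Id2 read 2.51 ± 0.605 CPM in normoxic proliferating and 42.5 ± 10.2 CPM in normoxic chondrocyte cultures, and Msx2 reached 29.0 ± 1.52 CPM in hypoxic osteoblast cultures. Hey1 was at 7.99 CPM or more in every chondrocyte and osteoblast library, and at or under 1.10 CPM in every proliferating and smooth muscle library. The part of BMP-2 in the level of Hey1 was not tested.

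For the 4 members with the widest range of group means, the genes whose log2 CPM ran most alike over the 28 libraries are named as a description. All libraries share depth scaling and group structure, and 13389 genes were searched. Hey1 was followed most closely by Gja3 (Pearson r = 0.97), Bmp8a (0.97) and Col6a2 (0.97), Notch4 by Ttll7 (0.96), Gprc5b (0.96) and Tgm2 (0.94), Jag2 by Gprc5b (0.94), Lamb3 (0.93) and Tgm2 (0.93), and Notch3 by Dhrs7 (0.94), Ypel3 (0.92) and Ypel2 (0.91). By rank the likeness was lower, with Spearman's rho of 0.87 to 0.92 for the genes named with Hey1, 0.84 to 0.89 for Notch4, 0.84 to 0.94 for Jag2 and only 0.52 to 0.69 for Notch3, which has 1 low group. Gprc5b and Tgm2 appear for both Notch4 and Jag2. In the authors' deposited tables each of the 61 pairwise changes of members called here has a log2 fold change of the same sign.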

How the data were processed

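Whole-number read counts per gene for 28 libraries were deposited by the authors in 1 table, and a log2 fold change per gene in 10 authors' tables of pairs of groups, per the file headers. The submitters' processing notes name HISAT2 2.0.5, StringTie 1.3.3b, featureCounts 1.5.0-p3 and mm10. Libraries were made with a stranded kit, per the labels' protocols. Which gene models were counted, and whether strand was used for it, is not given in the sources used here. Of 54429 gene identifiers 54314 matched a symbol, and 70 columns of normalised values were not used. Counts were scaled with TMM (edgeR 4.0.16, R 4.3.3), filtered with filterByExpr (minimum count 10, minimum total 15) within each comparison, and tested with edgeR's quasi-likelihood test, two-sided, with Benjamini-Hochberg adjustment over all genes tested. Only the libraries of the groups compared entered each fit. The fits were tested on simulated data. Exonic lengths came from GENCODE M21 on GRCm38. Ratios with few counts carry exact 95% intervals, and a count of 0 was bounded by 3 counts; both cover counting error only.

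Alternatives were library size scaling, with and without mitochondrially encoded genes, DESeq2 size factors, no filter, DESeq2 1.42.0, limma-voom (limma 3.58.1), 1 fit over 8 groups, a replicate block, a minimum change of 1 log2 unit for a call, and leaving out each library. Nothing says that libraries came from separate cultures, so p-values measure the spread between these libraries, which may be technical. No pair of libraries had counts that agree within sampling noise. The rule named all 10 members wherever they passed the filter, and of each wider list the 3 most abundant genes or those called and changed by 2 or more log2 units, of which the text gives a selection. The members and lists were chosen with earlier results of these data known.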

Additional observations from a re-analysis of the deposited data

Results flagged for a closer look

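In the 44 sets of 4 normoxic libraries looked at (10 members and the total count in each of 4 groups), 4 had 1 library far from the rest by Dixon's criterion, and chance gives about 1 in 20. Hey1 in the normoxic osteoblast library 4 was at 88.7 CPM with the others between 7.99 and 9.34 CPM, and Jag1 in the same library was at 82.8 CPM, below the 122 to 128 CPM of the others. Notch3 in the normoxic smooth muscle library 4 was at 33.9 CPM against 24.6 to 26.2 CPM. Hey1 in the normoxic proliferating library 1 was at 0.0517 CPM, from 2 counts, with 0 in the others.

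The change with differentiation differed between the oxygen levels in 16 of 27 interaction tests of members. Over all genes the interaction was called for 6654 of 15310 in chondrocyte, 8394 of 15486 in osteoblast and 11003 of 15640 in smooth muscle cultures. In chondrocyte cultures the interactions were -2.88 for Notch1, -0.45 for Notch2, -5.07 for Notch3, -1.35 for Notch4, -0.27 for Jag1, -1.29 for Jag2 and -2.32 for Hey2 (log2 scale). In osteoblast cultures they were -1.38 for Notch1, -4.76 for Notch3, 2.47 for Notch4, 2.36 for Jag2 and -1.24 for Hes1. In smooth muscle cultures they were -2.02 for Notch2, -3.38 for Notch3, -2.82 for Jag1 and 2.29 for Hes1, and these rest on the hypoxic smooth muscle libraries that stood apart. Without library 1 of those the Hes1 value was 1.47.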

How the results depend on the processing

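Of the 77 called changes of members, 63 were called in the same direction in every one of their fits under the alternatives, and of 1268 such fits 1210 kept the call, 54 lost it and 4 turned the direction. Counts of members called moved by more than 1.5 times in few cases. Asking for a log2 fold change of at least 1 left 2 in normoxic smooth muscle cultures, with 5727 of 14582 genes. Between oxygen levels it left 3 in proliferating cells, with 2628 of 14156 genes, and 4 in chondrocyte cultures, with 891 of 14205. Without a filter 2 were called in hypoxic smooth muscle against hypoxic proliferating cells, with 10838 of 23007 genes. One fit over the 8 groups called 4 in the chondrocyte interaction, with 5739 of 16540 genes, and leaving out libraries gave 4 to 7. Leaving out the mitochondrially encoded genes with library size as the scale called 7 in the smooth muscle interaction, with 11866 of 15670 genes. Leaving out libraries gave 4 to 7 there. Between oxygen levels in osteoblast cultures leaving out libraries gave 4 to 8. The 8 were without the normoxic library 4, where 9376 of 14295 genes were called.

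Libraries share replicate numbers but correlations of their deviations lay between -0.05 and 0.07 over 10 comparisons, with no comparison above 0.1 in every pair, so the numbers were not taken to pair the libraries. With the replicate block 8 members were called between oxygen levels in osteoblast cultures, where 9269 of 14533 genes were called, against 7890 without it. The normoxic library 4 has no hypoxic partner there and drops out by construction. Notch2 (-0.21, adjusted p = 0.0157), Notch3 (-0.56, adjusted p = 0.000301), Jag1 (-0.46, adjusted p = 0.000125) and Hey1 (3.78, adjusted p = 3.03e-15) were gained. Between oxygen levels in chondrocyte cultures the block lost Hes1 (-0.34, adjusted p = 0.0534) and gained Hey1 (-0.70, adjusted p = 0.00948). It lost Hes1 in hypoxic smooth muscle against proliferating cells (1.58, adjusted p = 0.0545) and Hey2 in the chondrocyte interaction (-2.39, adjusted p = 0.0674), and changed no other call of a member. The block turned Notch2 between oxygen levels in proliferating cells to -0.035 and Hey1 in smooth muscle cultures to -0.72, both uncalled before and after.

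Directions that turned were of changes that had not been called, apart from Notch3 in hypoxic smooth muscle cultures in both its comparisons. The cause was not tested. With library size as the scale, and then also without mitochondrially encoded genes, log2 fold changes became -0.65 and -0.45 for Notch3 in hypoxic smooth muscle against proliferating cells, -0.020 and -0.023 for Hey2 in hypoxic chondrocyte cultures, -0.15 and -0.15 for Hes1 in hypoxic osteoblast cultures, -0.074 and -0.071 for Notch2 between oxygen levels in proliferating cells, and -0.26 and -0.071 for Hey2 in the smooth muscle interaction. Between oxygen levels in smooth muscle cultures they became -1.33 and -1.13 for Notch1, -0.38 and -0.18 for Notch3, -0.81 and -0.62 for Hey1, and -0.11 for Jag2 with library size. Hes1 in the chondrocyte interaction became -0.0043 with library size and no mitochondrially encoded genes, -0.027 with DESeq2 size factors and -0.026 with DESeq2. Notch2 between oxygen levels in proliferating cells became -0.0076 with DESeq2 size factors, -0.0076 with DESeq2, -0.041 without a filter and -0.056 in 1 fit over 8 groups. In smooth muscle cultures Notch1 became -0.092 without a filter and -0.033 in 1 fit over 8 groups, and limma-voom gave -1.03 for Hey1 and -0.63 for Hey2 in the interaction.

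Leaving out 1 library at a time spanned 0 for Notch1 in normoxic osteoblast cultures (-0.18 to 0.11), Hey2 in hypoxic chondrocyte (-0.30 to 0.60) and Hes1 in hypoxic osteoblast cultures (-0.087 to 0.28). It did so between oxygen levels for Notch2 in proliferating cells (-0.052 to 0.050) and for Notch1 (-0.32 to 0.22) and Hey1 (-5.997 to 1.04) in smooth muscle cultures. Among interactions it did so for Hes1 in chondrocyte cultures (-0.076 to 0.14), for Notch2 (-0.16 to 0.042), Jag1 (-0.16 to 0.082) and Hey1 (-1.64 to 2.11) in osteoblast cultures, and for Notch1 (-0.42 to 0.12), Hey1 (-7.93 to 0.073) and Hey2 (-5.20 to 1.69) in smooth muscle cultures.

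Depth limits Hey2, Heyl, the proliferating levels of Hey1, and the levels of Jag2 and Notch4 in normoxic proliferating cells. Notch1, Notch2 and Notch3 share exonic bases with other genes, as stated beside their values.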
